A study of Mus musculus with 4 samples.

Results

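Gata4 binding was described at 10 genes of blood-vessel and blood specification, *Kdr* (the gene of Flk1), *Tal1*, *Lmo2*, *Fli1*, *Erg*, *Runx1*, *Cdh5*, *Pecam1*, *Tek* and *Flt1*, out of 22217 protein-coding genes of the annotation. A peak was taken as belonging to a gene when its position lay in the gene body or within 50 kb of it on mm9. By this rule 63 of the 20410 peaks of the WT list and 62 of the 22733 peaks of the DKO list were members. The genes were picked by name, and the rule used no measured value, but earlier results of these data were known when the genes were chosen.

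The data were 4 ChIP-seq libraries of mouse ES cell derivatives, 1 for each condition, and no condition had a replicate. WT Flk1(+) and DKO Flk1(+) cells were mesoderm progenitors at day 4.5 of differentiation on OP9 stroma, treated with 100 nM dexamethasone (Dex) for 3 hr and collected by Flk1 with magnetic beads. Both came from lines derived from J1 ES cells of the 129 background that carried Gata4GR, in which Gata4 is joined to the hormone-binding part of the human glucocorticoid receptor so that Dex activates it, and DKO stands for Dnmt3a-/-Dnmt3b-/-. WT ES and DKO ES libraries, from undifferentiated cells without Dex, served as the background of the same genotype. By the paper's account these ES cells expressed Gata4GR as well. A mixture of 3 antibodies against Gata4 was used in all 4 libraries. Gata4GR was driven by the constitutive CAG promoter and each Flk1(+) library came from 1 clone (J1G4.2 for WT, as the labels spell it where the paper has a longer name, and 16G4.3 for DKO), so genotype and clone cannot be told apart. The data hold bound DNA and no expression values, so the labelled cell type could not be checked against marker genes.

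Flk1, also known as VEGF receptor 2, is the VEGF receptor that marks the mesoderm from which endothelial and blood cells arise. Tal1, Fli1, Erg and Runx1 are transcription factors of this lineage, and Lmo2 is a LIM-domain partner of Tal1. Factors of the GATA family work with Tal1 and Lmo2 in a complex that reads a GATA site beside an E-box. Cdh5, Pecam1, Tek and Flt1 are proteins of the endothelial surface. Dnmt3a and Dnmt3b are the de novo DNA methyltransferases, which methylate CpG dinucleotides, and the comparison of the lists asks where Gata4 bound in cells that have or lack them.

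Sequences under selected peaks are given first. They are not the tallest peak at every gene, and none is printed for *Pecam1*. Capitals mark the GATA motif, which was searched as AGATAA or TGATAA on both strands, so that it reads TTATCT or TTATCA when it lies on the minus strand. All printed stretches but that of *Cdh5* hold the motif, so they do not show how often peaks hold it. Within 250 bp of the peak position it was found at 40 of 63 WT and 37 of 62 DKO peaks. All stretches are read from mm9 on the plus strand. Those of *Tal1* and *Tek* were moved to the motif nearest the peak position and do not include that position. The stretch of *Tek*, labelled promoter, lies just inside the gene, past its start. The first 3 belong to *Kdr*: the tallest WT peak downstream of the gene (chr5:76326105-76326225), the tallest DKO peak, in intron 10 (chr5:76358333-76358456), and the upstream peak with the largest ratio of WT to DKO height (chr5:76409078-76409198).
Kdr downstream: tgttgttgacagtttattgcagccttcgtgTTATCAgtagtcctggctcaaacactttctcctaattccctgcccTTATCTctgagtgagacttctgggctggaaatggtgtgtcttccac
Kdr intron 10: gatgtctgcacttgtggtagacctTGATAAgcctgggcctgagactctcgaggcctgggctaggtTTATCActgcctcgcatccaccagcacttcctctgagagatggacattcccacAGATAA
Kdr upstream: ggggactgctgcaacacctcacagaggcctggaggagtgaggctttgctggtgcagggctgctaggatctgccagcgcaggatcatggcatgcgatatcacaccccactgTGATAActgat
The next 6 belong to the transcription factors and *Lmo2*. The first of them are the tallest and the second tallest WT peak of *Tal1* (chr4:114768554-114768614 and chr4:114729266-114729326) and the only WT peak of *Lmo2* (chr2:103798011-103798131). The others are the upstream peak of *Fli1* found in both lists (chr9:32363992-32364112), an intronic peak of *Erg* found in both lists (chr16:95661587-95661707) and the tallest peak of *Runx1*, with all 6 of its motifs (chr16:92715975-92716225).
Tal1 far downstream: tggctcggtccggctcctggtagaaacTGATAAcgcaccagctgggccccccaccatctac
Tal1 intron 1: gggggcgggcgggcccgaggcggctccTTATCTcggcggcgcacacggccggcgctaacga
Lmo2 promoter: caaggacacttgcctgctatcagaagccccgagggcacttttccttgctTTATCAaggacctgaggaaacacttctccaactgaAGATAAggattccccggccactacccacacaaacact
Fli1 upstream: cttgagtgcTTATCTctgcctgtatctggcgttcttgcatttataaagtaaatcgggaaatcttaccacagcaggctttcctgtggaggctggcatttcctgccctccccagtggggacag
Erg intron 3: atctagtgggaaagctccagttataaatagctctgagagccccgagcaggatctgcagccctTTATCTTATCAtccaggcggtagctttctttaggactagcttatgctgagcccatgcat
Runx1 intron 2: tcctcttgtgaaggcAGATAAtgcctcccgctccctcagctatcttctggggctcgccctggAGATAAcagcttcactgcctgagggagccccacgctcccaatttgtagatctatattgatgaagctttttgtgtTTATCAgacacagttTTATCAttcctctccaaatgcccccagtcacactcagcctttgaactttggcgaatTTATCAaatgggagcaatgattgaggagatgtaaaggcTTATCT
The last 4 belong to the surface proteins: the peaks of *Flt1* with the tallest DKO and the tallest WT height (chr5:148469553-148469673 and chr5:148413906-148414026), the promoter peak of *Tek* found in the DKO list (chr4:94406004-94406033) and the tallest DKO peak of *Cdh5*, which holds no motif (chr8:106623378-106623498).
Flt1 intron 10: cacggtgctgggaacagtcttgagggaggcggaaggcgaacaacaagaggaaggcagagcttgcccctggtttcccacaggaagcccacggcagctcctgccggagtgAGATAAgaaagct
Flt1 intron 16: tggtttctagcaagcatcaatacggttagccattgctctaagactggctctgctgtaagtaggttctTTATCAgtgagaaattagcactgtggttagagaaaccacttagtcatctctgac
Tek promoter: agcaggagcagaAGATAAgccttggatgaa
Cdh5 upstream: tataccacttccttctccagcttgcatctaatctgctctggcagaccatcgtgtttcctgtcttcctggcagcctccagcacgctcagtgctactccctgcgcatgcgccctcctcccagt

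Every one of the 10 genes had a Gata4 peak within 50 kb in either list. Over all coding genes this held for 67.1% with WT peaks and 70.4% with DKO peaks. Within 5 kb of the gene body a WT peak was found at 10 of the 10 genes, against 39.4% of coding genes, and a DKO peak at 9 of the 10, against 49.1%, with *Lmo2* the gene that had none. The 10 genes are long, with a median of 108 kb against 15.5 kb for coding genes, and a longer gene offers more room for a peak. Among the 10387 coding genes that lie between the shortest and the longest of the 10 in length, a WT peak was found at 75.1% within 50 kb and at 49.8% within 5 kb, and a DKO peak at 79.6% within 50 kb and at 60.7% within 5 kb. Per 100 kb of gene and flanks, the 10 genes had a median of 2.36 WT and 3.00 DKO peaks, against 0.927 and 1.42 over coding genes.

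The number of peaks differed widely among the 10 genes, and neither list was ahead throughout. The WT list held more peaks than the DKO list at *Kdr* (16 and 9), *Tal1* (5 and 4), *Erg* (8 and 7) and *Runx1* (13 and 6). The DKO list held more at *Fli1* (2 WT and 7 DKO), *Cdh5* (1 and 4), *Pecam1* (10 and 11), *Tek* (1 and 3) and *Flt1* (6 and 10). *Lmo2* had 1 in each. A count as high as that of *Kdr* was reached by 0.144% of coding genes for WT and 6.55% for DKO, and one as high as that of *Runx1* by 0.378% and 17.3%, with no allowance for gene length. At the other end, the single WT peak of *Lmo2*, *Cdh5* and *Tek* was a count that 67.1% of coding genes reached. The counts come from 1 library each and carry no estimate of the spread between libraries.

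**Figure D1:**
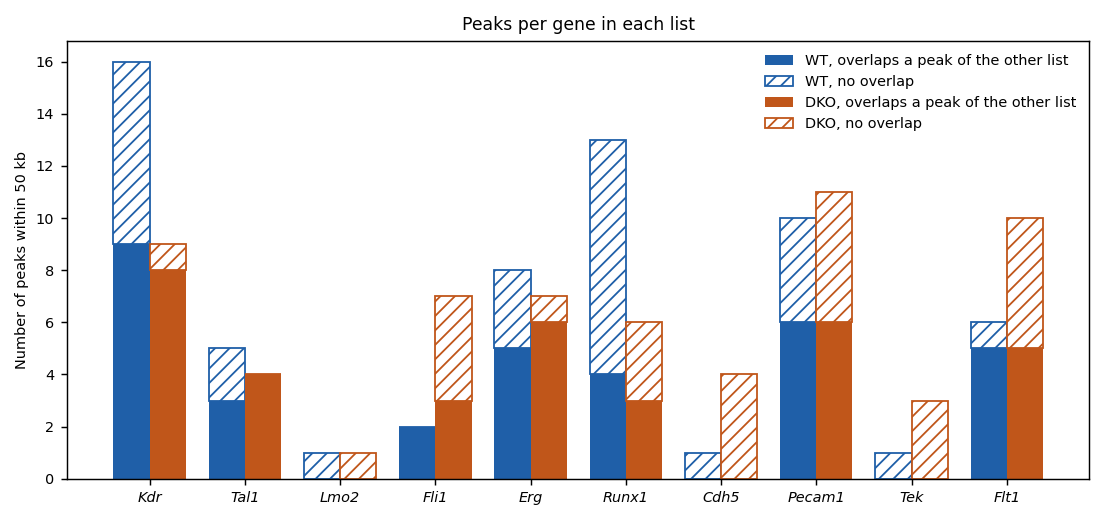
Number of peaks within 50 kb of each gene (vertical axis) in the WT list (blue) and the DKO list (orange), with filled bars for peaks that overlap a peak of the other list and hatched bars for those that do not. *Kdr* has the most WT peaks, 16, of which 9 overlap a DKO peak, and at *Lmo2*, *Cdh5* and *Tek* no peak overlaps.

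**Figure D2:**
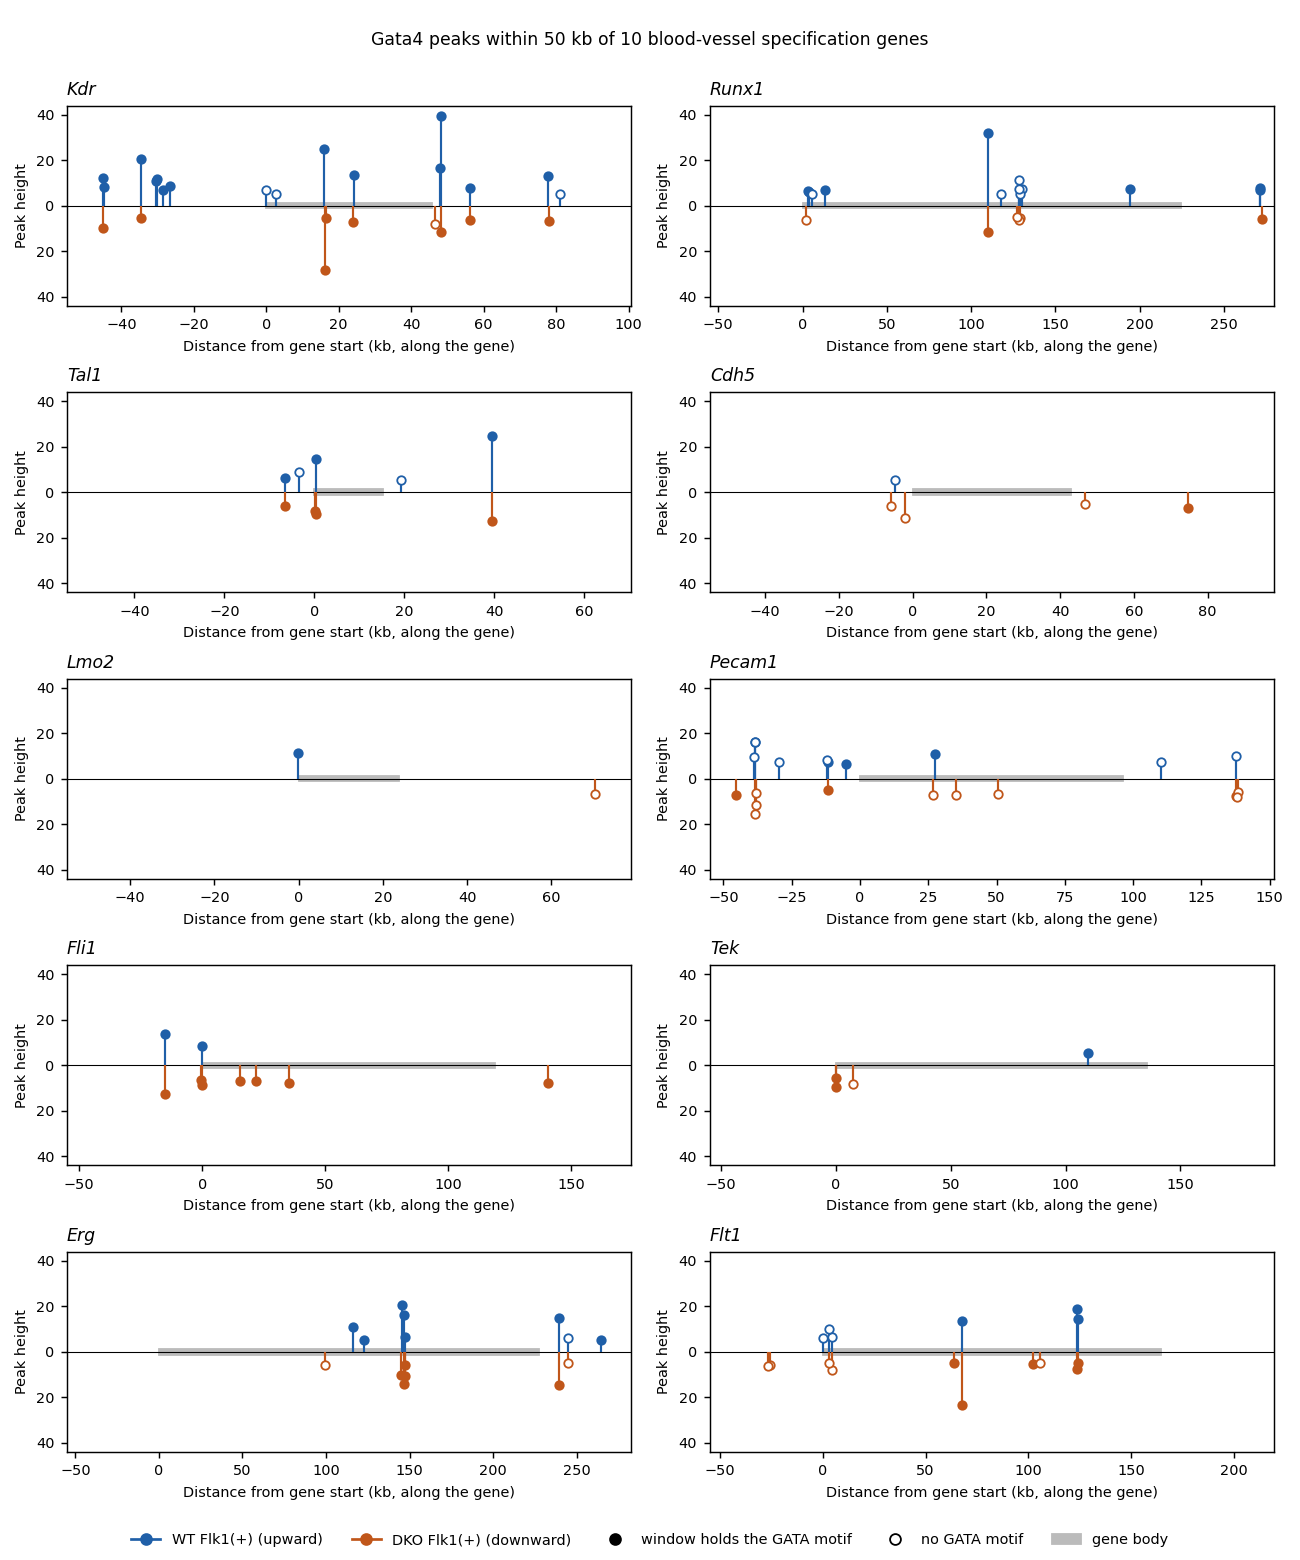
Peak height (vertical axis, WT upward and DKO downward) against distance from the gene start in kb, along the direction of transcription, for each of the 10 genes. Filled points hold the GATA motif, open points do not, and the grey bar is the gene body. The tallest WT peak, of height 39.7, lies just past the end of *Kdr*, and the tallest DKO peak, of height 28.2, lies inside *Kdr*.

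*Kdr* lies on chr5:76328852-76374483 on the minus strand, and all of its peaks had *Kdr* as the nearest coding gene. The tallest WT peak, 2687 bp past the gene's end, reached a height of 39.7 in the authors' read profile, with 1.67 in WT ES cells, and was the 19th highest-ranked of the WT list. The DKO peak at the same place, 3 bp away, had a height of 11.4, so the WT height was 3.48 times the DKO height. A further WT peak 2205 bp past the end, of height 16.5, had the same DKO peak within 479 bp. These peaks hold 2 GATA motifs each and between 6 and 8 CpGs in the window of 250 bp on either side of the peak position.

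Inside *Kdr* the DKO height was the greater at the peak of intron 10, but not at that of intron 15. The peak of intron 10, 16.1 kb from the start, had a height of 24.9 in WT and 28.2 in DKO, where it was the 23rd highest-ranked of all peaks. It holds 3 GATA motifs and 2 composite motifs, defined as TG, then 7 or 8 bases of any kind, then AGATAA or TGATAA, on either strand. A lower DKO peak of height 5.27 lay 16.5 kb from the start in the same intron. The peak of intron 15 had a height of 13.3 in WT and 7.30 in DKO. WT peaks without a DKO counterpart lay in intron 1 (height 5.06, 2803 bp from the start) and 192 bp upstream of the start (height 6.75), and the latter covers 27 CpGs and no GATA motif. A DKO peak of height 8.16 without a WT counterpart lay 977 bp past the gene's end.

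Upstream of *Kdr* the WT list had 8 peaks in all and the DKO list 2. The peak 34.7 kb upstream had a height of 20.6 in WT and 5.61 in DKO, a ratio of 3.68, which was the largest of any pair at the 10 genes. Between 26.4 and 30.3 kb upstream were 4 WT peaks, of height 8.69, 6.77, 11.7 and 10.9, each with at least 1 GATA motif, and the nearest DKO peaks lay between 4329 and 8228 bp from them. The peaks about 45.0 kb upstream were in both lists, with a height of 12.04 in WT and 9.87 in DKO at the nearest pair. Farther downstream, peaks 10616 and 32266 bp past the gene's end had heights of 7.59 and 13.2 in WT and 6.11 and 6.70 in DKO, and a WT peak of height 5.00 stood alone at 35483 bp. Over the 7 pairs of *Kdr* the WT height was above the DKO height in 6, with a median ratio of 1.82. Because Flk1 was the surface protein by which the cells were collected, both libraries come from cells with Flk1 protein.

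Other genes were looked up for their likeness to *Kdr* in 4 counts, the overlapping and non-overlapping peaks within 50 kb in each list. The counts of *Kdr* were 9 overlapping and 7 non-overlapping WT peaks, and 8 overlapping and 1 non-overlapping DKO peaks. The nearest were *Rap1a* (9, 5, 8 and 1, a summed difference of 2), *Camta1* (8, 7, 7 and 3, a summed difference of 4) and *Prdm6* (8, 6, 6 and 1, a summed difference of 4).

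*Tal1*, which encodes the basic helix-loop-helix factor needed for blood formation, lies on chr4:114729031-114744360 on the plus strand. Its tallest peak lay 39.5 kb downstream of the start, nearer to *Pdzk1ip1* than to *Tal1*, with a height of 24.9 in WT and 12.7 in DKO, a ratio of 1.97. The ES heights there were 3.35 for WT and 1.56 for DKO, so the peak was 7.43 times its ES height in WT and 8.12 times in DKO. The window covers 29 CpGs and holds 1 GATA motif, which is also a composite motif. In intron 1, 336 bp from the start, a WT peak of height 14.7 overlapped a pair of DKO peaks of height 8.45 and 9.39 at 211 and 388 bp. This is a CpG-rich place, with 56 CpGs in the WT window, and the ES heights were 3.38 for WT and between 1.73 and 1.82 for DKO. The peak 6490 bp upstream had a height of 6.04 in WT and 6.02 in DKO. WT peaks of height 9.01 (3530 bp upstream) and 5.30 (3949 bp past the end) had no DKO counterpart and no GATA motif.

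*Lmo2*, the gene of the LIM-domain partner of Tal1, lies on chr2:103798143-103822035 on the plus strand. Its WT peak lay 72 bp upstream of the start, with a height of 11.2 against 2.31 in WT ES cells, and holds 2 GATA motifs and 8 CpGs. The DKO list had no peak within 61546 bp of this position. The DKO peak that the 50-kb rule gave to *Lmo2* lay 46465 bp past its end at the start of *Fbxo3*, with a height of 6.82, 31 CpGs and no GATA motif.

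*Fli1* and *Erg* encode related Ets-family factors of endothelial and blood cells. *Fli1* had 2 WT and 7 DKO peaks, while the counts of *Erg* were close, at 8 and 7. At *Fli1* (chr9:32229793-32348974, minus strand) a peak 15.1 kb upstream had a height of 13.6 in WT and 12.5 in DKO, and a promoter peak 232 bp upstream in WT had a height of 8.33. The promoter held a pair of DKO peaks, of height 8.86 and 6.41 at 139 and 365 bp upstream. Intron 1 held 3 DKO peaks, of height 6.86, 7.11 and 7.60 at 15.4, 21.6 and 35.1 kb from the start, and no WT peak lay within 15595 bp of any of them. All 9 peaks of *Fli1* in both lists hold the GATA motif, including the DKO peak of height 7.87 beside *Kcnj1*.

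At *Erg* (chr16:95580776-95808200, minus strand) most peaks were common to the lists. Intron 3 held a cluster between 145 and 147 kb from the gene's start, where WT peaks of height 6.38, 16.0 and 20.8 were paired with DKO peaks of height 10.9, 14.1 and 10.4. In this cluster the DKO height was the greater at 1 pair and the WT height at the other two. A further DKO peak of height 5.83 overlapped the first of them. A peak 11756 bp past the gene's end had a height of 14.8 in each list, but the ES height was 3.08 for WT and 1.13 for DKO. WT peaks of height 10.998 and 5.22 elsewhere in intron 3 had no DKO counterpart, nor had a DKO peak of height 5.76 a WT one. Further past the end were a pair of height 6.16 in WT and 5.01 in DKO, without a motif, and a WT peak of height 5.10 nearer to *Kcnj15*. The gene start itself had no peak in either list.

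*Runx1*, which encodes the factor required for the emergence of blood cells from endothelium, lies on chr16:92601712-92826311 on the minus strand and had 11 WT and 5 DKO peaks in its body. The tallest was in intron 2, 110 kb from the gene's start and 18403 bp from the nearest start of any *Runx1* transcript. Its height was 32.2 in WT and 11.5 in DKO, a ratio of 2.80, with ES heights of 4.51 and 0.838. The window holds 6 GATA motifs and 3 composite motifs, more than any other window at the 10 genes. Near the internal start of *Runx1*, which serves its shorter protein forms, 4 WT peaks had heights of 7.30, 5.30, 11.2 and 7.20, and 3 DKO peaks had heights of 5.50, 6.15 and 5.07. These windows cover between 19 and 52 CpGs and none holds the GATA motif.

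The other WT peaks in *Runx1* had no DKO counterpart. Between 3.04 and 13.6 kb from the gene's start lay 4 WT peaks, of height 6.61, 6.21, 5.06 and 6.82, and 3 of them hold the motif. WT peaks of height 5.35 and 7.19 lay further in, at 118 and 194 kb. A DKO peak of height 6.42 without a WT counterpart lay 1.87 kb from the start. Between 46680 and 48352 bp past the gene's end, nearer to *Clic6*, were a pair of WT peaks, the lower of height 6.79, and a DKO peak of height 6.01, which lay 1403 bp from the closest of them.

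*Cdh5* encodes VE-cadherin, the adhesion protein of endothelial junctions (chr8:106625525-106668402, plus strand). The DKO list had a peak of height 11.5 at 2087 bp upstream, with rank 893, 12 CpGs and no GATA motif, and a lower one of height 5.92 at 5804 bp upstream. The WT list had a peak of height 5.42 at 4728 bp upstream. The closest of these positions were 1076 bp apart, so none overlapped. The DKO list also had a peak of height 5.05 at 3739 bp past the end, and another of height 7.14 inside *Bean1*. The body of *Cdh5* held no peak in either list.

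*Tek* encodes Tie2, the receptor of the angiopoietins (chr4:94405980-94541667, plus strand). The DKO list had a pair of promoter peaks, 36 bp upstream and 115 bp downstream of the start, of height 5.50 and 9.59 with ES heights of 1.71 and 1.79. Both windows cover the same GATA motif, printed above, and between 5 and 10 CpGs. A DKO peak of height 8.05 lay in intron 1. The nearest WT peak, 102560 bp from the last of these, was the single one of *Tek*, of height 5.19 in intron 12, with 2 GATA motifs.

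*Flt1* encodes VEGF receptor 1 (chr5:148373180-148537587, minus strand), and the order of the heights changed along the gene. In intron 10, 68.0 kb from the start, the height was 13.4 in WT and 23.5 in DKO, where it was the 55th highest-ranked peak, and the window holds 3 GATA motifs. In intron 16, about 124 kb from the start, the heights were 18.9 and 14.4 in WT and 7.66 and 5.01 in DKO, ratios of 2.46 and 2.88. In intron 1 a peak at 3.21 kb had a height of 10.2 in WT and 5.09 in DKO, and a peak at 4.38 kb had 6.67 in WT and 8.19 in DKO. The WT list had a promoter peak of height 6.14 at 71 bp upstream, with 45 CpGs and no motif. DKO peaks without a WT counterpart lay in introns 10 and 14, with heights of 5.11, 5.38 and 5.01, and at 25.7 and 26.6 kb upstream, with heights of 5.64 and 6.08.

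*Pecam1* encodes CD31 (chr11:106515531-106611942, minus strand), and most of the peaks around it belonged to its neighbours. The nearest coding gene was *Pecam1* for 2 of 10 WT and 3 of 11 DKO peaks. The tallest peaks, of height 16.2 in WT and 15.4 in DKO, lay at the neighbouring starts of *Ddx5* and *Ccdc45*, 38.4 and 38.6 kb upstream. In the gene body the WT list had a peak of height 10.7 with 2 GATA motifs in intron 1. The DKO list had peaks of height 7.07 and 7.27 in intron 1 and 6.79 in intron 3, none with the motif. The DKO peak of height 7.27 lay 39 bp from an internal start of *Pecam1*. The WT peak and the DKO peak of height 7.07 lay 502 bp apart, just past the limit for an overlap.

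A peak was counted as overlapping when the positions lay within 500 bp, so that the windows share at least 1 base. Of the WT peaks at the 10 genes, 34 of 63 overlapped a DKO peak, 54.0% (95% Wilson interval 41.8 to 65.7), against 45.6% of all WT peaks. Of the DKO peaks, 35 of 62 overlapped a WT peak, 56.5% (44.1 to 68.1), against 45.1% of all DKO peaks. The first background lies inside its interval, and so does the second. An overlap was found at 7 genes, and at *Lmo2*, *Cdh5* and *Tek* there was none. The intervals cover counting error only, and neighbouring windows share sequence.

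The overlapping WT peaks were taller, with a median height of 13.2 against 6.77 for the 29 that overlapped none, and the corresponding DKO medians were 8.19 and 6.79 for 35 and 27 peaks. The whole lists had the same order, with medians of 10.1 and 6.69 in WT and 7.82 and 6.40 in DKO. Every peak in the lists is at least 5 high and 3 times its ES background, with an ES height below 1 taken as 1. A place missing from a list may hold signal just under those limits, and the lists give no value there. The tallest peak at the 10 genes without an overlap had a height of 11.7 in WT, upstream of *Kdr*, and of 11.5 in DKO, upstream of *Cdh5*.

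At 28 places a WT and a DKO peak were each other's nearest, and there the heights could be set side by side. The WT height was the greater at 22 of 28, 78.6% (95% Wilson interval 60.5 to 89.8), against 71.9% of the 8489 such pairs in the lists. The median ratio of WT to DKO height was 1.26, against 1.24 over all pairs. The ES heights moved the same way, with a median WT to DKO ratio of 1.76 at the 28 places and 1.44 over all pairs, and their part in the difference was not tested. The 6 pairs with the greater DKO height were the intron 10 peak of *Kdr*, the intron 1 and intron 10 peaks of *Flt1*, 1 peak each in intron 3 of *Erg* and near the internal start of *Runx1*, and the *Fli1* promoter. Their WT to DKO ratios ran from 0.571 at *Flt1* to 0.964 at *Runx1*. Whether the authors' heights were scaled to the depth of the libraries is not given in the sources used here, and more mapped reads are stated for the DKO library, so an absolute ratio cannot be read as more or less binding.

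**Figure D3:**
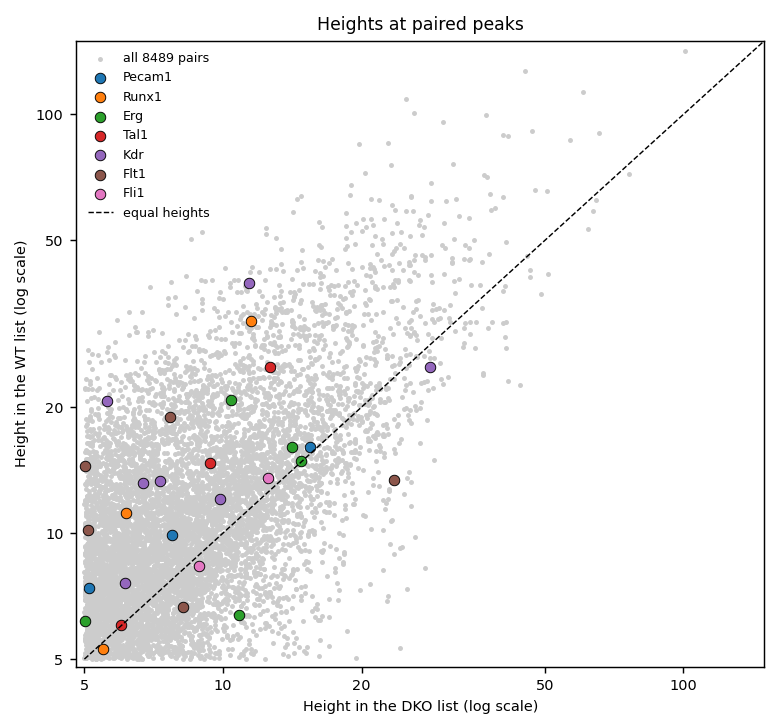
Height in the WT list against height in the DKO list, both on log axes, for 28 pairs at the 10 genes (coloured by gene) and all 8489 pairs (grey), with a dashed line of equal heights. The WT height is the greater at 22 of 28 coloured pairs, and the pair farthest below the line is that of *Flt1* intron 10, at 13.4 and 23.5.

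The GATA motif was found in 40 of 63 WT windows, 63.5% (95% Wilson interval 51.1 to 74.3), close to the 61.9% of all WT peaks. It was found in 37 of 62 DKO windows, 59.7% (47.3 to 71.0), against 38.1% of all DKO peaks. Of the DKO peaks at the 10 genes, 16 of 62, 25.8% (16.6 to 37.9), were within 1 kb of a coding start, against 49.9% of all DKO peaks. For WT the count was 14 of 63, 22.2% (13.7 to 33.9), against 27.9% of all WT peaks. Away from starts the motif shares were 75.5% at the 10 genes and 77.0% in the whole WT list, and 65.2% and 61.0% for DKO. Within 1 kb of a start the motif was found in 3 of 14 WT windows and in 7 of 16 DKO windows, against 22.9% and 15.0% in the whole lists. The 7 DKO windows are not separate sites. They include neighbouring windows at *Tal1*, at *Fli1* and at *Tek*, and at each of these genes the windows cover the same motif. Windows of the same length 2 kb to either side of the peaks held the motif in 49.2% of WT and 41.1% of DKO cases. The motif nearest to the peak position lay at a median distance of 44.5 bp in WT and 42 bp in DKO.

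The motif was also counted apart in peaks with and without an overlap. Among DKO peaks the motif was found in 26 of 35 overlapping windows (74.3%) and 11 of 27 others (40.7%), against 47.5% and 30.3% over the whole list. Among WT peaks it was found in 23 of 34 overlapping windows (67.6%) and 17 of 29 others (58.6%), against 52.8% and 69.5% over the whole list. No test was made between them, as the peaks of a list share 1 library. Neighbouring windows of a list that cover the same motif were counted apart here too.

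The composite of an E-box end and a GATA motif, the kind of site that the complex of Tal1 with a GATA factor reads, was found in 14 of 63 WT windows, 22.2%, against 17.2% of all WT peaks. It was found in 14 of 62 DKO windows, 22.6% (95% Wilson interval 14.0 to 34.4), against 10.6% of all DKO peaks. At *Tal1*, *Fli1* and *Erg* neighbouring DKO windows cover the same composite site, and the interval counts them apart. Each composite motif also holds a GATA motif, which was itself found in 59.7% of these DKO windows against 38.1% of all DKO peaks. An Ets motif, searched as CAGGAAG or CCGGAAG on both strands, was found in 34.9% of WT windows against 30.7% of all WT peaks, and in 30.6% of DKO windows against 35.2% of all DKO peaks. A match is only a match of letters and was not tested as a bound site.

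The windows at the 10 genes covered a median of 9 CpGs in WT and 10 in DKO, against 8 and 21 over the whole lists. Their CpG counts ran from 2 to 56 in WT and from 1 to 59 in DKO. The WT peaks of height 39.7 and 32.2, at *Kdr* and *Runx1*, cover 8 and 10 CpGs, and the DKO peaks of height 28.2 and 23.5, at *Kdr* and *Flt1*, cover 10 each. Other tall peaks covered more, with 29 CpGs at the *Tal1* peak of height 24.9 in WT and 47 at the DKO peak of height 15.4 near *Pecam1*. Windows with the most CpGs included those of *Tal1* intron 1, the internal start of *Runx1*, and the starts of *Tex2*, *Ddx5* and *Ccdc45* near *Pecam1*. The median height was 8.36 in WT against 7.74 for all WT peaks, and 7.09 in DKO against 6.91. Among the tenth of each list with the best score were 14 of 63 WT peaks, which is 22.2% with a 95% Wilson interval of 13.7 to 33.9. The DKO count was 13 of 62, 21.0% (12.7 to 32.6), where 10% is the share of the list by construction. *Kdr* alone gave most of the 14 WT peaks, so the WT share is largely that of 1 gene. No single gene gave most of the 13 DKO peaks.

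**Figure D4:**
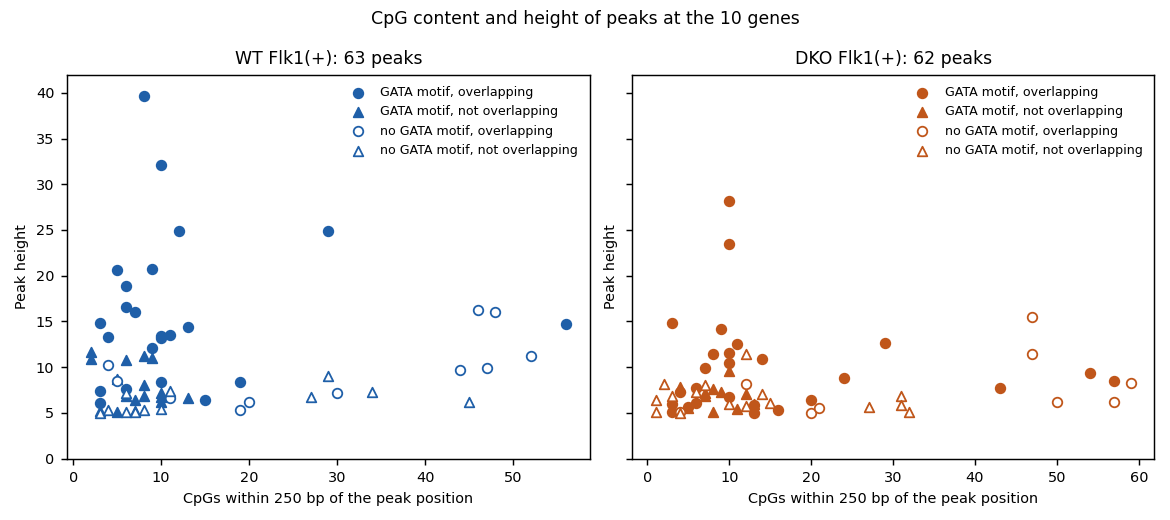
Peak height against the number of CpGs within 250 bp of the peak position, for the 63 WT peaks (left, blue) and the 62 DKO peaks (right, orange) at the 10 genes, with filled symbols for windows with the GATA motif and circles for peaks that overlap one of the other list. The tallest peaks, 39.7 in WT and 28.2 in DKO, lie at 8 and 10 CpGs and hold the motif.

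Other genes of vessel and blood specification, a list of 35 with a median length of 18.8 kb, had peaks as follows. Within 50 kb, 30 had a WT peak (85.7%) and 33 a DKO peak (94.3%), against 67.1% and 70.4% of coding genes. The median was 2 WT and 3 DKO peaks, against 1 and 2 over coding genes. Within 5 kb, 18 had a WT peak (51.4%) and 29 a DKO peak (82.9%), against the 39.4% and 49.1% of coding genes given above. All 18 with a WT peak within 5 kb also had a DKO peak, 11 had only a DKO peak and 6 had neither. The share of coding genes with a peak in only 1 list was not computed, so the 11 have no background. *Lyl1*, a relative of *Tal1*, had the tallest peak in both lists, in its exon 1, with a height of 62.6 in WT and 64.5 in DKO. The next in the WT list were *Nrp1*, a co-receptor of VEGF, with 29.0 in intron 1, *Cbfa2t3*, a corepressor that joins the Tal1 complex, with 23.4 in intron 1, and *Acvrl1*, a BMP9 receptor of endothelium, with 21.7. The next in the DKO list were *Hhex*, a homeobox factor of early endothelium and endoderm, with 24.5 in intron 1, *Acvrl1* with 19.9 and *Cbfa2t3* with 16.5. This DKO peak of *Cbfa2t3* lay 200 bp upstream of the start, a different place from its WT peak, 32595 bp past the start. At *Hhex* the WT height within 5 kb was at most 9.29, and at *Nrp1* the DKO height was at most 11.7.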

How the data were processed

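Gata4 ChIP-seq was measured in 4 libraries, and 2 deposited peak lists were used, WT Flk1(+) against WT ES and DKO Flk1(+) against DKO ES. Per the submitters' processing notes, CASAVA 1.8.1 and cutadapt were used with mm9. The authors called peaks with DNAnexus tools with a kernel bandwidth of 30, a candidate height of 5, at least 3 times the ES height and a ratio of 3 for confident to repetitive mapping. The aligner, the treatment of duplicate reads and the scaling of the signal are not given in the sources used here. The paper's methods state more initial and mapped reads for the DKO than for the WT Flk1(+) library, and the peak files hold no read counts. The deposited lists give a signal (the peak height) in Flk1(+) cells and in ES cells, the authors' ratio of both, the −log10 of the q-value, and a rank that was taken as the score (1 is the best). The columns do not say which library they describe, so a list was matched to its genotype through the peak number in the paper's methods.

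Rows that named the same peak for several genes were joined, leaving 20410 WT peaks from 23048 rows and 22733 DKO peaks from 27966. Genes came from GENCODE vM1, of which the longest coding transcript gave intron and exon numbers. The deposited sequence around each of the 125 peaks equalled mm9 with the peak position at its centre. No test was made between the lists, since there is 1 library per condition. The genes and lists were chosen with earlier results of these data known. By rule, every peak in a gene or within 5 kb, the highest peak of each list within 50 kb, and the 4 highest genes of the further list were named. Steps were tested on simulated data. Python 3.11.15, NumPy 2.4.6, pandas 2.3.3 and SciPy 1.17.1 were used. The alternatives were other distances, the better-scoring part of each list, other limits of overlap, another motif or window, and the nearest gene. No expression, methylation or reporter values were analysed here.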

Additional observations from a re-analysis of the deposited data

How the results depend on the processing

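No paired analysis was possible because each condition has 1 library. Of 44 alternative values, 35 stayed within 1.5 times the reported count or within the reported interval, and the cause of the other 9 was not tested. Within 5 kb of the gene bodies, 36 WT and 38 DKO peaks were left. With the better-scoring 50% of each list, 38 WT and 38 DKO peaks were left, the overlapping share was 65.8% in WT and 68.4% in DKO, and the motif share was 86.8% in WT and 73.7% in DKO. In this setting 8 of the 10 genes had a WT peak within 50 kb. Shares over all peaks and all coding genes were not computed for this setting. The shares of the full lists given above are therefore not its background. With positions within 100 bp as the limit of overlap, 43.5% of DKO peaks overlapped a WT peak. More mapped reads are stated for the DKO than for the WT Flk1(+) library, the files hold no read counts, and absence from a list was not readable as absence of binding.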
